A study of Mus musculus with 24 samples.

Results

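Tlx3, Skor2, Lbx1, Lmx1b and Prrxl1 are transcription regulators of the dorsal horn, the sensory part of the grey matter of the spinal cord, and their levels were followed here in whole spinal cord of mice with a Gars mutation. The 5 genes were matched by symbol, out of 38924 genes listed in each library, and all 5 passed the filter on low counts that left 17409 genes for testing. Tlx3 and Skor2 were chosen on measured values, namely their higher level in Gars-mutant than in wild-type Gars mice among animals with intact Gcn2. The other 3 genes were added as members of the same regulatory program. That contrast is therefore given below as a description only, and Gars effects are tested only in animals that the choice did not use.

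The study sequenced poly(A) RNA of 24 spinal cord samples from mice aged 8 weeks, whose background is given as B6J;CASTxB6.129. Gars encodes glycyl-tRNA synthetase, and the mutant animals carried 1 copy of the dominant P278KY allele, a model of inherited motor and sensory neuropathy. Gcn2 (gene symbol Eif2ak4) is a kinase that responds to uncharged tRNA by starting the integrated stress response. There were 4 Gcn2+/+;Gars+/+, 4 Gcn2+/+;GarsP278KY/+, 4 Gcn2+/-;Gars+/+, 4 Gcn2+/-;GarsP278KY/+, 3 Gcn2-/-;Gars+/+ and 5 Gcn2-/-;GarsP278KY/+ libraries. The labels do not say that each library is a separate animal. The labels name no promoter or Cre line that would confine an allele to a cell type. Sex was uneven, with 3 male libraries of 4 in the Gcn2+/+;Gars+/+ group and 1 of 4 in the Gcn2+/+;GarsP278KY/+ group. It was a term in the main fit.

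In the embryo, Lbx1 marks the dorsal interneuron precursors that settle in the dorsal horn, and Tlx3 selects the glutamatergic fate over the GABAergic one among them. Lmx1b and Prrxl1 (also called Drg11) are homeodomain factors of the same excitatory lineage, needed for its differentiation and for the ingrowth of sensory axons. Skor2 is a co-repressor of the SKI family, best known from the Purkinje cells of the cerebellum, which it helps to mature. Some of these genes stay on in adult dorsal horn neurons. Tlx3 and Prrxl1 are also used by sensory neurons of the dorsal root ganglia.

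The proximal promoters of Tlx3 and Lmx1b are shown because these are a gene of the chosen pair and, of the other 3 factors, the one whose profile over the libraries was most like theirs. Each is the 250 bases before the RefSeq start in mouse build GRCm38.p6, read 5′ to 3′ on the gene's strand. Capitals mark an E-box, CANNTG, the motif of the bHLH proneural factors. Tlx3 lies at chr11:33203589-33203838 on the minus strand and Lmx1b at chr2:33641099-33641348 on the minus strand.
Tlx3: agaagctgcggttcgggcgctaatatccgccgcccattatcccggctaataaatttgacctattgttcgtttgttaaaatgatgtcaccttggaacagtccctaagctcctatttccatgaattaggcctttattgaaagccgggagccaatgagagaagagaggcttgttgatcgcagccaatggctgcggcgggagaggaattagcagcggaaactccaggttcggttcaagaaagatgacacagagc
Lmx1b: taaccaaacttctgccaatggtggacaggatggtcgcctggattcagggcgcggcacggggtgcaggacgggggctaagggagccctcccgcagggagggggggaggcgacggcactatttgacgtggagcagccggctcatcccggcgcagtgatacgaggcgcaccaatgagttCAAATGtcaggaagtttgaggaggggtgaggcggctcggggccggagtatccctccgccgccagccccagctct
The Lmx1b window held 1 E-box and the Tlx3 window held 0, against 66.2% of 32851 mouse promoter windows of the same length that held at least 1 on either strand. Neither window held the homeodomain site TAATTA, found in 4.84% of all windows, or the ATF4 composite site TGATGNAA, found in 3.45%. ATF4 is the transcription factor that the Gcn2 pathway induces. GC content was 48.8% in the Tlx3 window and 65.2% in the Lmx1b window, with a median of 52.4% over all windows. The RefSeq start of Lmx1b lies 587 bases upstream of the one in GENCODE, so the window does not adjoin the gene as annotated there. The Prrxl1 window, chr14:32599677-32599926 on the plus strand, held 0 of the 3 motifs. It lies inside the gene as annotated in GENCODE, downstream of the start given there.

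By the gene models of GENCODE release M21 on GRCm38, Tlx3 spans chr11:33200752-33203589 on the minus strand and Skor2 spans chr18:76856405-76900342 on the plus strand. Lbx1 spans chr19:45232684-45235812 and Lmx1b chr2:33560965-33640511, both on the minus strand, and Prrxl1 spans chr14:32599407-32649246 on the plus strand. All 5 are protein-coding, and none overlaps another gene that is both listed in the libraries and annotated in M21. Genes of M21 that the libraries do not list were not examined for overlap. How the deposited counts of the 5 genes shared out ambiguous reads was not examined.

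Library totals ran from 19.7 M to 32.4 M expected counts (M, mega). Eif2ak4 averaged 31.2 ± 2.39 counts-per-million (CPM, SD, n = 4) in Gcn2+/+;Gars+/+ mice and 13.6 ± 1.91 (n = 3) in Gcn2-/-;Gars+/+ mice, in the order of the labels, while Gars averaged between 134.6 and 148.3 CPM in every group. The summed CPM of 9 Schwann cell and nerve root genes lay at 76.8 to 141.1 in 19 libraries. It stood apart in 5 others. These were Gcn2+/+;GarsP278KY/+ replicates 2 and 4 at 1219 and 2854, Gcn2+/-;Gars+/+ replicates 1 and 3 at 1251 and 2413, and Gcn2+/-;GarsP278KY/+ replicate 4 at 324.9. Summed genes of the meninges reached 1073 CPM in Gcn2+/+;GarsP278KY/+ and 578.8 in Gcn2+/-;Gars+/+ libraries. They were at 42.3 to 137.2, with a mean of 92.0, in Gcn2+/-;GarsP278KY/+ libraries, and at most 77.05 in the remaining groups. For Tlx3, Skor2, the dorsal horn lists and the called genes of any list, values without the first 4 of the 5 libraries high in Schwann cell genes are given as well.

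Expression of the 5 genes per transcript length was low. Over all 24 libraries Lbx1 averaged 9.75 ± 1.26 transcripts-per-million (TPM, SD), Lmx1b 8.99 ± 1.02, Prrxl1 4.17 ± 0.79, Tlx3 3.92 ± 0.96 and Skor2 1.92 ± 0.41. Skor2 had the lowest TPM of the 5 in 24 of 24 libraries. Lbx1 was above Lmx1b in 16 of 24 and Prrxl1 above Tlx3 in 14 of 24, so the order within these pairs was not fixed. In reads, Tlx3 rested on 47 to 119 counts per library, Skor2 on 53 to 129 and Prrxl1 on 50 to 116, whereas Lbx1 had 196 to 441 and Lmx1b 391 to 708. Counting error alone is then 14.6% at the lowest Tlx3 count and 5.06% at the lowest Lmx1b count. The mean coefficient of variation within groups was 15.9% for Tlx3, 12.3% for Skor2, 11.7% for Lbx1, 8.3% for Lmx1b and 16.5% for Prrxl1. Its median was 11.2% over all genes tested. Over genes with a mean CPM of 1 to 5, a range that leaves out Lbx1 and Lmx1b, it was 21.9%. In whole tissue, fewer cells of a type and less RNA per cell cannot be told apart.

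Tlx3, the glutamatergic selector, was lowest in mice with both genes intact. Its CPM was 1.85, 1.67, 2.49 and 2.04 in the 4 Gcn2+/+;Gars+/+ libraries, a mean of 2.01 ± 0.35 (SD, n = 4). In the 4 Gcn2+/+;GarsP278KY/+ libraries it was 4.12, 3.92, 3.21 and 2.69, a mean of 3.49 ± 0.66 (n = 4). The lowest mutant library thus lay above the highest wild-type library. With 1 Gcn2 copy, CPM was 2.83, 3.52, 2.79 and 3.26 with wild-type Gars and 2.44, 2.96, 3.28 and 3.18 with the mutation. These ranges overlapped, with 1 mutant library below the lowest wild-type Gars library, at means of 3.10 ± 0.36 and 2.97 ± 0.37 (n = 4 each). Without Gcn2, the 3 Gars+/+ libraries had 2.39, 1.94 and 2.84 and the 5 mutant libraries 2.73, 3.57, 3.27, 3.16 and 2.33. Their means were 2.39 ± 0.45 and 3.01 ± 0.49, with 3 of 5 mutant libraries above the highest wild-type Gars library.

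Skor2 had a similar order. CPM was 2.54, 2.2, 2.45 and 2.14 in Gcn2+/+;Gars+/+ mice and 4.58, 3.42, 3.79 and 3.23 in Gcn2+/+;GarsP278KY/+ mice, with no overlap. The means were 2.33 ± 0.19 and 3.76 ± 0.60 (SD, n = 4 each). Of the other groups, Gcn2+/-;Gars+/+ libraries had 2.42, 3.29, 2.92 and 3.92 and Gcn2+/-;GarsP278KY/+ libraries 3.56, 2.92, 2.63 and 2.92. The spread between the wild-type Gars libraries enclosed all 4 mutant ones. Gcn2-/-;Gars+/+ libraries had 3.14, 3.21 and 2.77, and Gcn2-/-;GarsP278KY/+ libraries 3.38, 3.98, 3.85, 3.46 and 3.27. Here all 5 mutant libraries lay above the highest of the 3 wild-type Gars libraries, at means of 3.59 ± 0.31 and 3.04 ± 0.23.

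In the order of group means for Tlx3, each group overlapped its neighbour, from Gcn2+/+;Gars+/+ at the bottom through Gcn2-/-;Gars+/+ and the Gcn2+/- groups to Gcn2+/+;GarsP278KY/+ at the top. For Skor2 only the step from Gcn2+/+;Gars+/+ to the next group, Gcn2+/-;GarsP278KY/+, lacked an overlap. Of the 16 libraries with 1 or 0 intact Gcn2 copies, 12 exceeded the highest Gcn2+/+;Gars+/+ library in Tlx3 and 15 did so in Skor2. The 7 of these libraries with wild-type Gars behaved alike in Skor2, with 6 above that mark, and the Tlx3 figure was 5. Because the reference group took part in the choice of both genes, its low position is a description of these 4 libraries. The counts above it and the Skor2 step follow in part from that choice. The share of all genes tested with such counts was not computed.

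**Figure D1:**
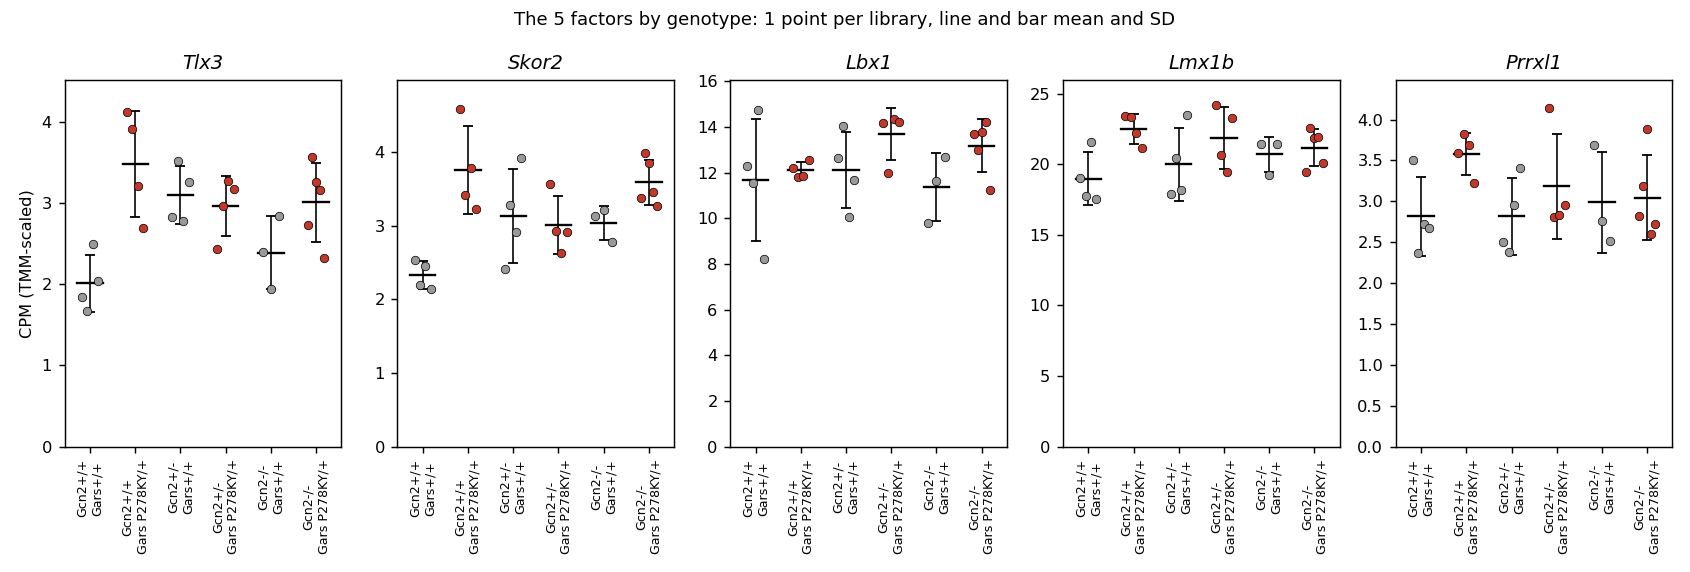
CPM (vertical axes, TMM-scaled, from 0) of the 5 factors in each library, by genotype. Grey points are wild-type Gars and red points GarsP278KY/+ libraries, lines are means and bars SDs. The mean of the Gcn2+/+;Gars+/+ libraries is the lowest of the 6 for Tlx3 (2.01) and Skor2 (2.33), with some libraries of other genotypes inside their range, while Lbx1 overlaps in all groups.

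Lbx1, which defines the dorsal interneuron precursors, had CPM of 12.3, 11.5, 14.7 and 8.22 in Gcn2+/+;Gars+/+ mice and 12.2, 11.8, 11.8 and 12.6 in Gcn2+/+;GarsP278KY/+ mice. The mutant libraries fell inside the wide range of the wild-type ones. No library of any genotype exceeded the highest wild-type one, 14.7. With 1 Gcn2 copy, 3 of 4 mutant libraries were above the highest wild-type Gars library, and without Gcn2 4 of 5 were. The group means ran from 11.4 ± 1.48 in Gcn2-/-;Gars+/+ mice to 13.7 ± 1.14 in Gcn2+/-;GarsP278KY/+ mice, and all neighbours in that order overlapped.

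Lmx1b, a LIM-homeodomain factor, was the most abundant of the 5 in CPM. Its values were 19.0, 17.7, 21.6 and 17.6 in Gcn2+/+;Gars+/+ mice and 23.4, 23.3, 22.2 and 21.1 in Gcn2+/+;GarsP278KY/+ mice. Here 3 of 4 mutant libraries were above the highest wild-type library. The means of the 6 groups rose from 19.0 ± 1.87 in Gcn2+/+;Gars+/+ mice to 22.5 ± 1.07 in Gcn2+/+;GarsP278KY/+ mice. Between these lay 20.0 and 21.9 for the Gcn2+/- groups and 20.7 and 21.2 for the Gcn2-/- groups, wild-type Gars first, and every neighbour overlapped.

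Prrxl1 had CPM of 3.50, 2.37, 2.72 and 2.68 in Gcn2+/+;Gars+/+ mice and 3.59, 3.82, 3.69 and 3.23 in Gcn2+/+;GarsP278KY/+ mice. As for Lmx1b, 3 of 4 mutant libraries exceeded the highest wild-type one. In Gcn2+/- mice the means were 2.82 ± 0.47 and 3.18 ± 0.64 (SD, n = 4 each) and in Gcn2-/- mice 2.99 ± 0.62 (n = 3) and 3.04 ± 0.52 (n = 5). In each of these genotypes 1 mutant library lay above the highest wild-type Gars library.

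In Gcn2+/+ mice, the contrast used for the choice, the fitted log2 fold change of Tlx3 was 0.81 ± 0.18 (SE), or 1.75-fold, and that of Skor2 was 0.73 ± 0.15, or 1.66-fold. The fit is edgeR's quasi-likelihood model over all 24 libraries, and a gene was called at a Benjamini-Hochberg adjusted p below 0.05. In this contrast 110 genes, 0.632% of those tested, were called. Both chosen genes are among them by construction. Lmx1b had 0.25 ± 0.10, Prrxl1 0.42 ± 0.18 and Lbx1 0.08 ± 0.14, and these 3 were not among the called genes. A complete separation of the 4 mutant from the 4 wild-type libraries with mutants higher, as seen for Tlx3 and Skor2, held for 4.06% of all genes tested.

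Without the 4 libraries highest in Schwann cell genes, the difference in Gcn2+/+ mice was 0.87 for Tlx3 and 0.87 for Skor2. Among males alone (3 wild-type, 1 mutant) the Tlx3 difference was 1.03 and the Skor2 difference 0.92. Among females (1 wild-type, 3 mutants) they were 0.65 and 0.68. The titles begin with numbers whose meaning the labels do not state, and several libraries, also of different genotypes, can share a number. The numbers were split here by size. The lower ones are named the earlier set and the higher ones the later set, and no date is given for either. In the earlier set (1 against 2 libraries) Tlx3 differed by 0.53 and Skor2 by 0.75, and in the later set (3 against 2) by 0.79 and 0.53. Since all 4 mutant libraries lay above all 4 wild-type ones in both genes, every such subset had to give a positive difference.

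The 16 libraries from Gcn2+/- and Gcn2-/- mice took no part in the choice and allow a test. The spread behind each test comes from the fit over all 24 libraries, those of the choice included. In Gcn2-/- mice Tlx3 differed between Gars genotypes by 0.32 ± 0.19 on the log2 scale (SE), a ratio of 1.25 with a 95% interval from 0.95 to 1.64. The adjusted p was 0.941 (edgeR). Skor2 differed by 0.21 ± 0.15, a ratio of 1.16 with an interval from 0.93 to 1.44, and also had an adjusted p of 0.941. Neither passed the test. In this comparison 2 genes, 0.0115% of those tested, were called. The separation of all 5 mutant from all 3 wild-type Gars libraries of Gcn2-/- mice in Skor2 was shared by 2.11% of genes tested. All 3 wild-type Gars libraries of Gcn2-/- mice were of the earlier title set, against 2 earlier and 3 later mutant ones. Within the earlier set Tlx3 differed by 0.22 and Skor2 by 0.22.

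In Gcn2+/- mice the estimates for both genes lay close to 0. Tlx3 differed by -0.05 ± 0.18 (ratio 0.96, 95% interval 0.74 to 1.25, edgeR adjusted p = 0.923). Skor2 differed by -0.04 ± 0.15 (ratio 0.97, interval 0.79 to 1.2, adjusted p = 0.931). In this comparison 31 genes, 0.178%, were called, so that the comparison did make calls at this sample size. A separation with all mutants higher was seen in 3.78% of genes, but in neither of these. Without the 4 Schwann-rich libraries the differences were -0.19 for Tlx3 and -0.27 for Skor2, with adjusted p of 0.734 and 0.495.

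Lbx1 had the same estimate in both genotypes, 0.19 ± 0.14 (SE), with edgeR adjusted p of 0.525 in Gcn2+/- and 0.941 in Gcn2-/- mice. Lmx1b had 0.13 ± 0.09 (adjusted p = 0.513) and 0.03 ± 0.09 (adjusted p = 0.98). Prrxl1 had 0.20 ± 0.17 (adjusted p = 0.605) and -0.01 ± 0.18 (adjusted p = 0.999). None of the 3 was called in either genotype. Taken over both genotypes, where 12 genes or 0.0689% were called, the 5 estimates were 0.13 ± 0.13 for Tlx3, 0.09 ± 0.10 for Skor2, 0.19 ± 0.10 for Lbx1, 0.08 ± 0.07 for Lmx1b and 0.10 ± 0.12 for Prrxl1. Lbx1 came nearest to the threshold, at a ratio of 1.14 with an interval from 0.99 to 1.31 and an adjusted p of 0.877. All 12 called genes fell.

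**Figure D2:**
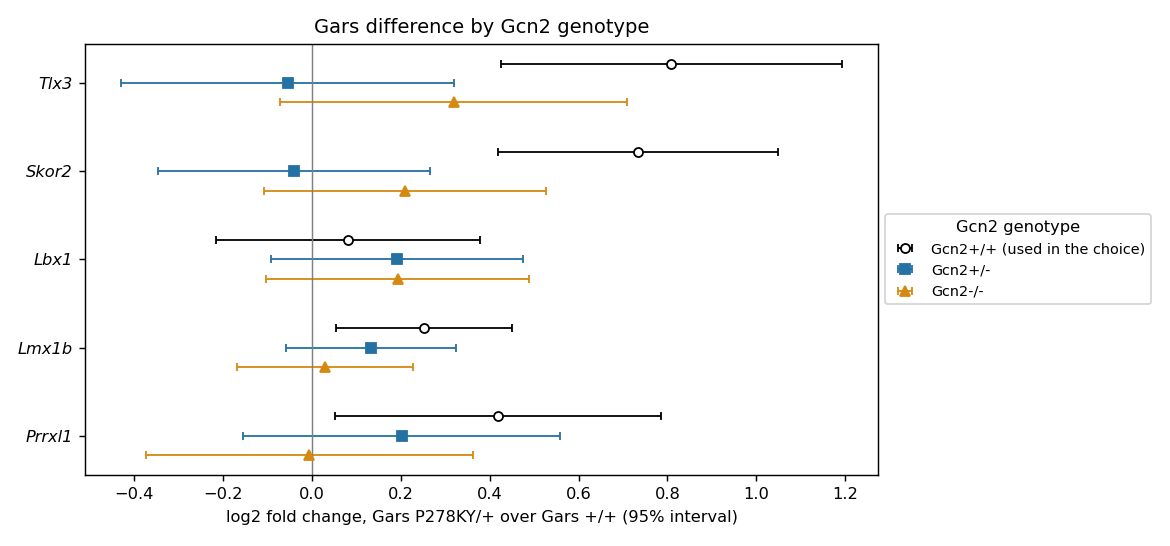
Fitted log2 fold change of GarsP278KY/+ over Gars+/+ (horizontal axis) with its 95% interval for the 5 factors, by Gcn2 genotype. Open circles are Gcn2+/+ mice, the contrast that chose Tlx3 and Skor2; the intervals in Gcn2+/- mice (squares) and Gcn2-/- mice (triangles) all include 0.

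The difference of the Gars effect between Gcn2-/- and Gcn2+/- mice was also estimated from libraries that took no part in the choice. It was 0.37 ± 0.26 for Tlx3 (SE, edgeR adjusted p = 0.546) and 0.25 ± 0.21 for Skor2 (adjusted p = 0.625). The intervals of this ratio of ratios ran from 0.89 to 1.90 and from 0.87 to 1.62. Lbx1, Lmx1b and Prrxl1 had 0.00, -0.10 and -0.21, none of them called, against 6 called genes or 0.0345% of all. The comparisons with Gcn2+/+ mice share the libraries of the choice and are described only. Against the effect in Gcn2+/+ mice, that in Gcn2-/- mice differed by -0.49 ± 0.27 for Tlx3 and -0.52 ± 0.22 for Skor2, and that in Gcn2+/- mice by -0.86 ± 0.25 and -0.77 ± 0.21.

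No sex difference passed the test in any of the 5 genes. The female minus male difference was -0.03 ± 0.11 for Tlx3 and -0.10 ± 0.09 for Skor2 (SE), with the largest at -0.14 ± 0.10 for Prrxl1, a ratio of 0.91 with an interval from 0.78 to 1.05. Every adjusted p was 1.00 to 2 decimals (edgeR), and 14 genes or 0.0804% were called for sex.

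Other genes of the excitatory dorsal horn program were taken from a list of 10 identity factors, of which 9 were tested. Tlx1, the close relative that acts with Tlx3 in the embryo, was at 0 in 22 of 24 libraries and was not tested. With 1 Gcn2 copy, where 0.178% of all genes tested were called, 1 of 9 was higher with the mutation and 0 were lower. This was Ebf2, a transcription factor gene of differentiating neurons, at 0.36 ± 0.07 (SE, edgeR adjusted p = 0.0452). Its CPM was 25.1 to 26.6 with wild-type Gars and 31.1 to 34.8 with the mutation. The Gcn2+/-;Gars+/+ mean of 26.1 was the lowest of the 6 groups. Ebf2 means were 30.05 and 32.8 in Gcn2+/+ mice and 32.6 and 28.9 in Gcn2-/- mice, wild-type Gars first. Its relatives Ebf1 and Ebf3 had 0.21 ± 0.07 and 0.27 ± 0.08 in Gcn2+/- mice and were not called. Ebf2 was also the 1 call of this list with DESeq2 there (adjusted p = 0.00181). The size of the Ebf2 difference stayed between 0.34 and 0.42 in 34 alternatives, of which 17 kept the call. With the title number as a replicate block, 0 of 9 were called. Without the 4 Schwann-rich libraries it was 0.35 (edgeR adjusted p = 0.288), and in the list 0 of 9 were then called, with 3 at an unadjusted p below 0.05 and a median of 0.04. Without Gcn2, Ebf2 had -0.20 ± 0.08, and 0 of 9 were called by either tool, with 2 at an unadjusted p below 0.05, Mafa higher and Ebf2 lower. Over both genotypes the median of the 9 was 0.06, against -0.0005 for all genes tested, with 0 called by either tool and 2 at an unadjusted p below 0.05.

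Mafa, a large Maf factor found in dorsal horn and sensory neurons, had a profile much like that of Tlx3. Its CPM was 2.04, 1.42, 2.57 and 2.24 in Gcn2+/+;Gars+/+ mice and 3.83, 3.39, 3.96 and 2.66 in Gcn2+/+;GarsP278KY/+ mice. Without Gcn2 it was 1.55, 1.60 and 2.26 with wild-type Gars and 2.76, 3.34, 2.53, 2.71 and 2.51 with the mutation. The mutant libraries lay above all wild-type Gars libraries in both of these genotypes, as 4.06% and 2.11% of all genes tested did. With 1 Gcn2 copy the mean was 3.01 ± 0.39 with wild-type Gars and 2.55 ± 0.34 with the mutation (SD, n = 4 each). The fitted difference was 0.73 ± 0.19, 0.62 ± 0.20 and -0.25 ± 0.19 (SE) in Gcn2+/+, Gcn2-/- and Gcn2+/- mice. In the latter 2 the edgeR adjusted p was 0.941 and 0.563, so Mafa was not called.

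Of 22 genes expressed by excitatory dorsal horn neurons (transmitter, peptide and receptor genes), 0 were called by edgeR in Gcn2+/-, Gcn2-/- or both genotypes together. At an unadjusted p below 0.05 there were 6, 2 and 3, all of them higher, where 14.7%, 4.35% and 5.78% of all genes tested were at such a p in either direction. DESeq2 called 2 of them in Gcn2+/- mice, Slc17a6 at 0.21 (adjusted p = 0.0413) and Adcyap1 at 0.31 (adjusted p = 0.0434). There it called 191 of 17409 genes and gave no adjusted p for 4 of the 22. In Gcn2-/- mice and over both genotypes DESeq2 called 0 of them. The median was 0.18 in Gcn2+/- mice, against -0.01 for all genes tested, and 0.01 in Gcn2-/- mice, against 0.00. Estimates were above 0 for 18 of 22 in Gcn2+/- mice and for 13 of 22 in Gcn2-/- mice, against 47.3% and 50.9% of all genes tested. Without the 4 Schwann-rich libraries the median in Gcn2+/- mice was 0.11, with 16 of 22 above 0, 0 called and 3 at an unadjusted p below 0.05. Over both genotypes the lowest p belonged to Nmu, the neuropeptide neuromedin U, at 0.29 ± 0.10 (SE, edgeR adjusted p = 0.648), followed by its receptor Nmur2 at 0.36 ± 0.12. Slc17a6, the vesicular glutamate transporter VGLUT2 that excitatory neurons need, had 0.11 ± 0.04 and Adcyap1, the peptide PACAP, 0.12 ± 0.06.

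The inhibitory side of the dorsal horn also had 0 called genes in these comparisons by edgeR or DESeq2, which gave no adjusted p for 2 factors in Gcn2+/- mice. At an unadjusted p below 0.05 there was 1 factor and 1 neuron gene in Gcn2+/- mice and 0 in Gcn2-/- mice. Of 14 identity factors 12 were tested, and Ptf1a, the embryonic selector of the GABAergic fate, was at 0 in 21 of 24 libraries. In Gcn2+/- mice the median was 0.03 for the factors, with 8 of 12 above 0, and 0.12 for 13 inhibitory neuron genes, with 11 of 13 above 0. Without the 4 Schwann-rich libraries these medians were -0.03 and 0.04. In Gcn2-/- mice they were 0.10 and -0.03, with 10 of 12 and 4 of 13 above 0. Over both genotypes Tfap2b, an AP-2 factor of dorsal interneurons, had 0.21 ± 0.07 (SE, edgeR adjusted p = 0.61). Slc32a1, the vesicular GABA and glycine transporter, had 0.05 ± 0.04. For 18 ventral interneuron factors the median was 0.11 in Gcn2+/- mice, with 13 of 18 above 0, and -0.04 in Gcn2-/- mice. Over both genotypes it was 0.04, with 0 called by either tool, 1 at an unadjusted p below 0.05 and Lhx3 at 0.48 ± 0.15 (adjusted p = 0.573). Of 7 relatives of the 5 genes only Skor1, Ski and Skil were expressed enough to test. Skor1, the co-repressor partner of Lbx1, had 0.09 ± 0.09, and 0 of these 3 were called or had an unadjusted p below 0.05.

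**Figure D3:**
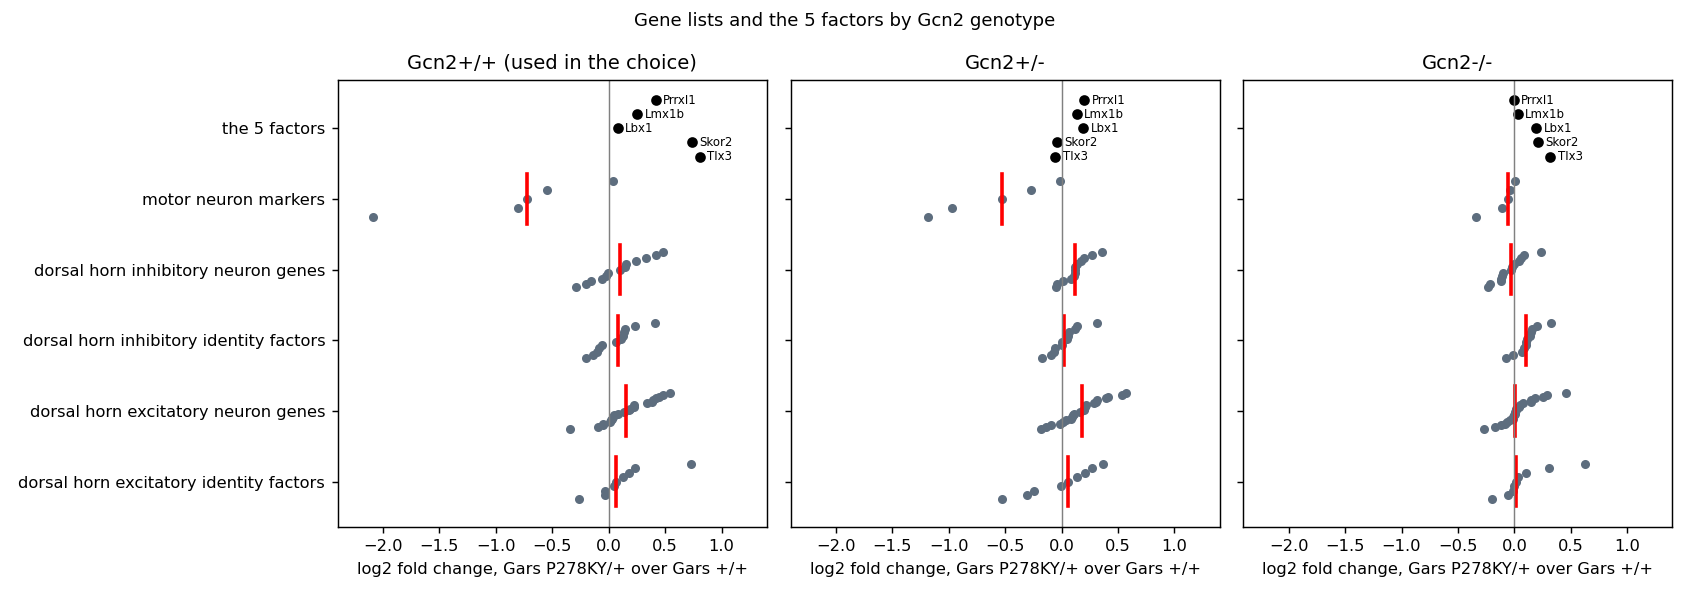
Fitted log2 fold change of GarsP278KY/+ over Gars+/+ (horizontal axes) for each tested gene of 5 lists (grey points, red bar at the median) and the 5 factors (black), by Gcn2 genotype. Medians of the 4 dorsal horn lists in Gcn2+/- mice run from 0.03 to 0.18, while motor neuron markers lie lower in Gcn2+/+ (median -0.72) and Gcn2+/- mice (median -0.53) than in Gcn2-/- mice (median -0.06).

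Markers of other cells moved with the Gars genotype in some of the same animals. The summed CPM of 13 dorsal root ganglion neuron genes was 11 to 14.5 in Gcn2+/+;Gars+/+ libraries and 16.2 to 20.1 in Gcn2+/+;GarsP278KY/+ libraries. It was 10.8 to 14.1 and 13.4 to 16.8 in Gcn2+/- mice and 10.9 to 13.2 and 11.9 to 13.4 in Gcn2-/- mice, wild-type Gars first. P2rx3, the ATP receptor of nociceptors, and Avil supplied much of the difference in Gcn2+/+ mice. P2rx3 had means of 1.39 ± 0.35 and 4.76 ± 0.84 CPM there, and Avil 0.36 ± 0.02 and 1.95 ± 1.05 (SD, n = 4 each). Of the 8 genes tested, edgeR called 2 there, P2rx3 and Avil, where 0.632% of all genes tested were called. The list was made with earlier results of these data known. In Gcn2+/- mice P2rx3 rose by 1.19 ± 0.21 on the log2 scale (SE, edgeR adjusted p = 0.0132), where Tlx3 and Skor2 had estimates near 0. DESeq2 gave it no adjusted p there, as for 7 of the 8 ganglion genes tested, and called it over both genotypes (0.67, adjusted p = 0.0251). The edgeR call ended with the title number as a replicate block, where 0 of 8 were called. It also ended without Gcn2+/-;Gars+/+ replicate 2 (1.10, adjusted p = 0.0656) and without the 4 Schwann-rich libraries (1.23, adjusted p = 0.21), and it was kept in 28 of 33 alternatives. With edgeR it was the 1 called gene of 8 in Gcn2+/- mice, and in Gcn2-/- mice 0 of 8 were called by either tool or reached an unadjusted p of 0.05. The defining nociceptor genes Scn10a, Scn11a, Trpv1 and Mrgprd reached at most 0.29, 0.30, 0.43 and 0.03 CPM in any library. Mrgprd was at 0 in 23 of 24 libraries and Scn10a in 11. The part of ganglion RNA in the levels of Tlx3 and Prrxl1 was not tested.

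Schwann cell levels varied within a genotype. Among Gcn2+/+;GarsP278KY/+ mice, Tlx3 was 4.12 and 3.21 CPM in the 2 libraries with low Schwann levels and 3.92 and 2.69 in the 2 with high levels. For Skor2 the values were 4.58 and 3.79, against 3.42 and 3.23. Of the 9 Schwann and 8 meningeal genes tested, 0 were called by edgeR in any of the 3 Gcn2 genotypes. At an unadjusted p below 0.05, 12 of the 17 were higher with the mutation in Gcn2+/+ mice, 10 were lower in Gcn2+/- mice and 0 differed in Gcn2-/- mice. Of all genes tested, 17.3%, 14.7% and 4.35% were at such a p in either direction. DESeq2 called 6 Schwann and 3 meningeal genes higher in Gcn2+/+ mice and 3 Schwann genes lower in Gcn2+/- mice. Its counts of called genes over the whole table are given in the last paragraph. Summed pan-neuronal genes were lower in Gcn2+/+;GarsP278KY/+ libraries, at 3677 to 4137 CPM, than in Gcn2+/+;Gars+/+ libraries, at 4332 to 4932. The part of pan-neuronal RNA in the levels of Tlx3 and Skor2 was not tested.

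Skor2 is known from the cerebellum, and genes listed for cerebellum and brainstem are given beside it. Gabra6, a receptor subunit of cerebellar granule cells, was at 0 in 23 of 24 libraries, and Pcp2, a Purkinje cell gene, lay between 0.17 and 0.88 CPM, with means of 0.38 ± 0.12 in Gcn2+/+;Gars+/+ and 0.49 ± 0.29 in Gcn2+/+;GarsP278KY/+ mice (SD, n = 4 each). The 11 cerebellar genes summed to 194.6 to 230.3 CPM in Gcn2+/+;Gars+/+ mice and to 186.3 to 211.1 in Gcn2+/+;GarsP278KY/+ mice. Of these genes, Calb1 lay at 36.1 to 44.8 and at 32.9 to 43.5 CPM. Of 4 tested brainstem monoamine genes and 9 tested cerebellar genes, 0 were called by either tool in Gcn2+/- or Gcn2-/- mice, with 2 at an unadjusted p below 0.05 in Gcn2+/- mice, where DESeq2 gave 2 and 4 of them no adjusted p. The part of cerebellar or brainstem RNA in the level of Skor2 was not tested. Of the dorsal horn lists, Slc17a6 lay at 203.1 to 281.5 and Slc32a1 at 146.6 to 190.5 CPM over all libraries.

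**Figure D4:**
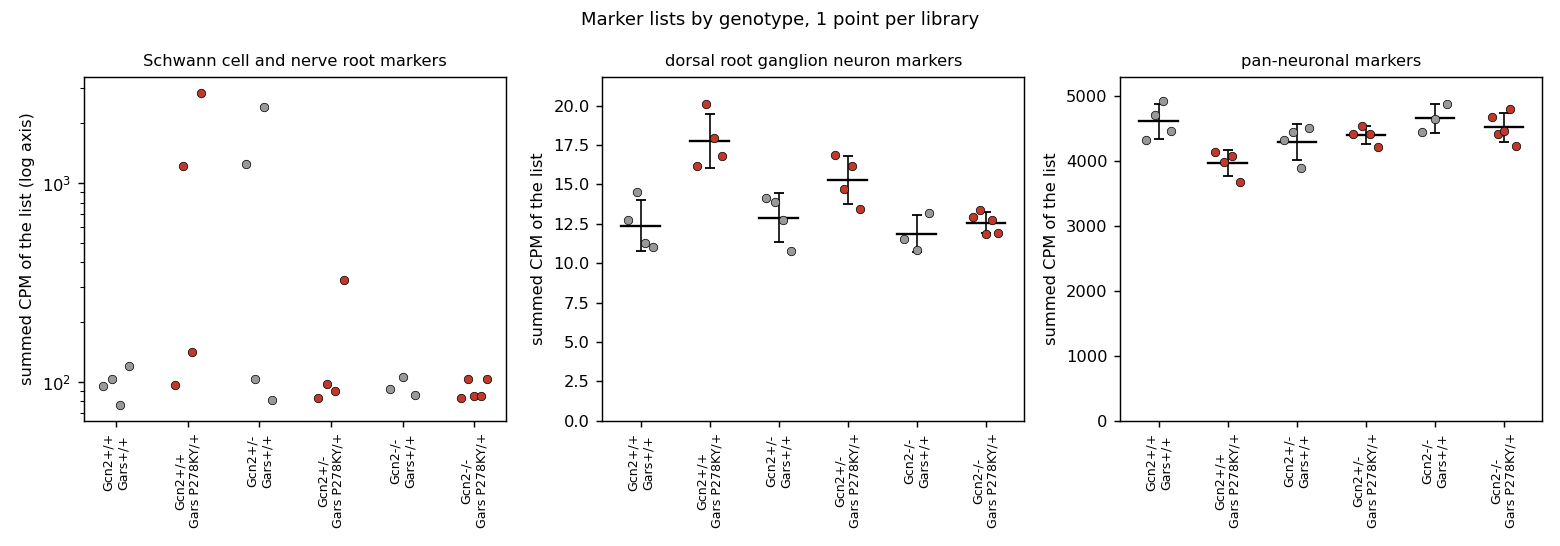
Summed CPM of 3 marker lists in each library, by genotype (grey wild-type Gars, red GarsP278KY/+). The left vertical axis is logarithmic, and the other panels start at 0 and show means and SDs. Schwann cell genes reach 1219 CPM or more in 2 Gcn2+/+;GarsP278KY/+ and 2 Gcn2+/-;Gars+/+ libraries, and ganglion markers reach 16.2 to 20.1 CPM in Gcn2+/+;GarsP278KY/+ mice. Much of the ganglion difference in Gcn2+/+ mice comes from P2rx3 and Avil.

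The level along the cord was read from Hox genes, which mark its segments. Rostral Hox genes summed to 96.1 to 117.7 CPM over all libraries, and their median difference over both Gcn2 genotypes was 0.03. Caudal Hox genes varied more. They ran from 67.5 to 99.3 CPM in Gcn2+/+;Gars+/+ libraries, 69.3 to 119.6 in Gcn2+/+;GarsP278KY/+ libraries and 92.5 to 106.4 in Gcn2-/- libraries. In Gcn2+/- mice they were at 96.4 to 104.6 with wild-type Gars and 75.2 to 104.0 with the mutation, a median difference of -0.46 with 1 of 7 above 0, and of -0.22 over both genotypes. Of 6 rostral and 7 caudal Hox genes tested, 0 were called by either tool in Gcn2+/- or Gcn2-/- mice, with 3 caudal ones lower at an unadjusted p below 0.05 in Gcn2+/- mice, where 14.7% of all genes were at such a p and where 2 caudal ones had no adjusted p with DESeq2. The part of tissue length in the dorsal horn values was not tested.

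The list of motor neuron genes, like the others, was made with earlier results of these data known. Of 5 tested, 3 fell in Gcn2+/- mice and 0 in Gcn2-/- mice, where 0.178% and 0.0115% of all genes tested were called. Chat, the acetylcholine-synthesising enzyme, fell by 0.53 ± 0.07 (SE, edgeR) in Gcn2+/- mice, the intermediate filament gene Prph fell by 0.97 ± 0.11 and Chodl, a gene of fast motor neurons, fell by 1.19 ± 0.20. Without the 4 Schwann-rich libraries the values were -0.53, -1.01 and -1.05, with Chodl not called (adjusted p = 0.188). These 3 also fell over both genotypes, where without those libraries only Prph was called (-0.50, adjusted p = 0.0233). Prph was also 1 of the 6 genes whose Gars effect differed between these genotypes, by 0.98 ± 0.16 (adjusted p = 0.0217). This call was kept in 22 of 33 alternatives and ended without the 4 Schwann-rich libraries (1.01, adjusted p = 0.104).

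How the 5 factors varied together was described by Pearson's r of log2 CPM over the 24 libraries, which share genotypes and dissection. Tlx3 and Skor2 had r = 0.65, which fell to 0.25 once group and sex means were removed. Skor2 and Lmx1b had r = 0.74 both before and after that step, and Tlx3 and Lmx1b 0.62 and 0.50. Skor2 and Prrxl1 had 0.59 and 0.57, and Lmx1b and Prrxl1 0.61 and 0.49. Tlx3 and Prrxl1 had 0.27 and -0.02. Lbx1 had 0.42 with Lmx1b, 0.38 with Tlx3, 0.25 with Skor2 and -0.02 with Prrxl1.

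Among 13610 genes with an average of 1 CPM or more and a full symbol, the profile most like that of Tlx3 was Vstm2l, a gene for a secreted immunoglobulin-domain protein, at r = 0.83 and at 0.82 with group and sex removed. Spata5l1, Mafa, C1qtnf4 and Tsen34 followed at 0.81, 0.81, 0.81 and 0.79. For Skor2 the nearest were Ubxn6 at 0.80, Dgkz and Gsg1l at 0.78, and Lmtk3 and Polr3c at 0.76. No gene was on both lists of 5. Lmx1b ranked 15 among the genes most like Skor2 and 99 among those most like Tlx3, while Lbx1 ranked 3505 and 1067.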

How the data were processed

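Whole spinal cord poly(A) RNA was sequenced with stranded kits, per the labels' protocols. Per the submitters' processing notes, the authors used Bowtie2 2.2.0 and RSEM 1.2.12. The deposited expected counts and TPM are per gene, and an expected count shares out ambiguous reads. The sources used here do not give the genome build or annotation. Of 38924 Ensembl identifiers, 37607 matched GENCODE M21, and unmatched ones held 0.261% of counts. Groups and sex come from the labels, which do not say that libraries are separate animals, so p-values measure the spread between these samples.

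The deposited expected counts were rounded, filtered with filterByExpr, scaled by TMM and fitted in edgeR 4.0.16 (R 4.3.3) with 6 groups and sex, robust dispersions and 17 residual degrees of freedom. The common biological coefficient of variation was 0.225. Intervals are 95%. DESeq2 1.42.0 was an alternative, and the fit was tested on simulated counts. The 5 genes and all gene lists were chosen with earlier results of these data known. List genes are named if called or among the 4 smallest p over Gcn2+/- and Gcn2-/- mice, and likeness genes if among the 5 highest correlations. DRG, Schwann, meningeal, cerebellar, brainstem, motor neuron, neuronal and Hox lists came from general knowledge. RefSeq promoter entries matched 3 genes (Tlx3, Lmx1b, Prrxl1).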

Additional observations from a re-analysis of the deposited data

Results flagged for a closer look

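Of 100 sets of 4 or 5 libraries examined (levels of the 5 genes and sums of the gene lists by genotype), 6 held a library far from the rest of its group, and chance alone flags about 1 in 20. For the 5 genes, Lbx1 was 11.97 CPM in Gcn2+/-;GarsP278KY/+ replicate 2, with the next library at 14.17, and Prrxl1 was 4.143 CPM in replicate 1 of that group, with the next at 2.955. For the lists, excitatory identity factors summed to 513.1 CPM in Gcn2+/-;GarsP278KY/+ replicate 3 (next 537.6), where ventral interneuron factors summed to 66.37 (next 62.57). Inhibitory identity factors summed to 146.3 CPM in Gcn2+/-;Gars+/+ replicate 3 (next 165.3), a library with high Schwann cell levels. Schwann cell genes summed to 324.9 CPM in Gcn2+/-;GarsP278KY/+ replicate 4 (next 98.28). Of these 6 values, 5 came from Gcn2+/-;GarsP278KY/+ mice.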

How the results depend on the processing

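No alternative called any of the 5 genes in the comparisons tested, and the smallest adjusted p of Tlx3 was 0.68 in Gcn2-/- and 0.734 in Gcn2+/- mice, with 0.751 and 0.495 for Skor2. In Gcn2-/- mice Tlx3 stayed between 0.20 and 0.53 and Skor2 between 0.16 and 0.28. Skor2 in Gcn2+/- mice was 0.17 without Gcn2+/-;Gars+/+ replicate 4. DESeq2 gave no adjusted p for Tlx3, Skor2 and Prrxl1 in Gcn2+/- mice or in the difference between genotypes.

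Counts of called genes over the whole table moved more, and the cause was not tested. With DESeq2 they were 27 in Gcn2-/-, 191 in Gcn2+/-, 56 over both, 46 for the difference, 22 for sex and 648 in Gcn2+/+ mice. With the title number as a replicate block they were 1, 4, 3 and 1 for the first 4, and with the 2 title sets as a term 1 for Gcn2-/- and 1 for the difference. Of the called list genes Prph kept its call in Gcn2+/- mice under the block (adjusted p = 0.0378), and Chat, Chodl, Ebf2 and P2rx3 did not (0.228, 0.183, 0.701 and 0.704). What the title numbers mark is not stated. Over both genotypes the calls of Chat, Chodl and Prph were kept in 19, 16 and 30 of 33 alternatives. Without the 4 Schwann-rich libraries, an alternative added after seeing the data, counts were 1, 11, 5 and 0 (2155 genes at an unadjusted p below 0.05 for the last), and 31 in Gcn2+/+ mice. Without Gcn2+/+;GarsP278KY/+ replicates 2 and 4 they were 20 over both and 35 in Gcn2+/+ mice. Fitted on 16 libraries, Gcn2-/- gave 1 and Gcn2+/- 18. Fitted on the compared groups alone, Gcn2-/- gave 1, Gcn2+/- 5 and Gcn2+/+ 11. In Gcn2+/+ mice 72 were called with no filter and 201 with no sex term. Leaving out 1 library at a time gave 1 to 3 in Gcn2-/-, 18 (without Gcn2+/-;Gars+/+ replicate 2) to 66 (without Gcn2+/-;GarsP278KY/+ replicate 1) in Gcn2+/-, 4 to 17 over both, 0 (in 4 of 24 cases, with 1550 to 2372 at an unadjusted p below 0.05) to 9 for the difference, 10 to 16 for sex and 47 (without Gcn2+/+;Gars+/+ replicate 3) to 600 (without Gcn2+/+;Gars+/+ replicate 1) in Gcn2+/+ mice. Counts of about 50 to 130 reads for Tlx3, Skor2 and Prrxl1 limit what can be seen of small changes.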
